A study of Mus musculus with 8 samples.

Results

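The mammalian circadian clock is a feedback loop of transcription factors that runs in most cells, skin fibroblasts included. CLOCK and its partner BMAL1, the product of Arntl, bind DNA at E-boxes and activate the Per and Cry genes, whose proteins come back to repress them. The products of Bhlhe40 and Bhlhe41, also called DEC1 and DEC2, bind E-boxes too and act as repressors, and Bhlhe40 is a known target of HIF, the transcription factor that is stabilised when oxygen is low. Here 10 genes were followed through low oxygen by name: Bhlhe40, Bhlhe41, Per1, Per2, Cry1, Cry2, Nr1d1, Nr1d2, Dbp and Clock. They are 10 of the 17091 features in the deposited table, and all 10 were among the 12107 features that passed the filter on low values, which asked for a normalised read count of 10 or more in 2 or more of the 8 libraries.

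The cells were immortalised skin fibroblasts, that is, fibroblasts adapted to unlimited growth in culture. The WT cells derive from C57BL/6 mice and the others from mir210lox/lox mice, and libraries of the latter carry the name KO. DNA between lox sites is removed by the Cre recombinase, which the labels do not mention, so KO stands here for the group's name only. The gene of miR-210, a microRNA, is a known HIF target. Each genotype was cultured for 24 hours in 21% oxygen, called normoxia, or in 1% oxygen, called hypoxia, with 2 libraries for each of the 4 groups. The single time of harvest gives no view of a daily cycle. Whether the 2 libraries of a group are separate cultures is not stated in the labels, and the spread behind the p-values may therefore be technical. In bulk RNA, fewer cells that express a gene and less of its RNA per cell cannot be told apart.

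Values are the authors' normalised read counts, whole numbers that are never below 1. Their totals ran from 7.93 M to 8.68 M per library, and the spacing of low values put the reads behind them at an estimated 6.26 M to 12.01 M. At these depths a value of 10 stands for about 7.23 to 15.2 reads. All 9 fibroblast markers were tested, with summed values of 61222 to 92198 per library, against sums of 10 to 32 for leukocyte, 13 to 48 for endothelial, 26 to 64 for keratinocyte, 3 to 12 for Schwann cell and melanocyte, 4 to 94 for adipocyte and 32 to 400 for muscle markers. Vim, at 22681 to 35333, and S100a4, at 18243 to 39734, made up most of the fibroblast sum, and Dcn, at 12 to 93, was its smallest part. Mir210 was at 1 in all 8 libraries, so its level gives no check of the KO label. Libraries also differed in how values moved with transcript length, from a log2 slope of -0.14 per doubling of length in KO normoxia replicate 1 to 0.14 in KO normoxia replicate 2. In WT the slopes were 0.04 and 0.08 in normoxia and -0.08 and -0.12 in hypoxia. Small RNA genes took 2.59% to 11.2% of the values, with 3.58% and 2.59% in WT normoxia and 6.40% and 6.06% in WT hypoxia.

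Changes are differences of log2(value + 1), which understate those of low genes, given with their standard error (SE). They were tested with limma across all 12107 features, in 1 fit of the 4 groups, two-sided, with Benjamini-Hochberg adjustment, and "called" means an adjusted p under 0.05. The smallest two-sided p of an exact permutation test with 2 libraries on each side is 0.333, and calls therefore depend on a spread estimated from the 4 groups together.

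Per kilobase of exon, Clock, Nr1d2 and Bhlhe40 were the most abundant of the 10 genes, with means over the 8 libraries of 101, 89.8 and 89.6 normalised read counts. Cry1 followed at 61.7, Cry2 at 22.2, Nr1d1 at 16.6 and Per1 at 10.2. Per2 at 8.82, Dbp at 5.05 and Bhlhe41 at 4.20 were lowest. Neighbours in this order overlapped between libraries, except Cry1 and Cry2.

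Bhlhe40 was the 1 gene of the 10 that rose in hypoxia. It lies at chr6:108660629-108666925 on the plus strand (GRCm38), across from 0610040F04Rik, which was at 1 in all libraries. Its normalised read counts were 294 and 276 in WT normoxia and 564 and 476 in WT hypoxia. In KO they were 260 and 299 in normoxia and 586 and 618 in hypoxia. Every hypoxia library stood above every normoxia library, and the groups of each genotype were well separated. Such a separation was met by 249 of the 12107 features (2.06%), and by Bhlhe40 alone of the 10. The opposite, all 4 hypoxia libraries below all 4 normoxia libraries, was met by 1.65% of features and by 0 of the 10.

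Group means of Bhlhe40 were 285 ± 12.7 (SD, n = 2) and 520 ± 62.2 in WT and 279.5 ± 27.6 and 602 ± 22.6 in KO, normoxia first. The log2 change was 0.86 ± 0.21 (SE) in WT, with an unadjusted p of 0.00238 and a limma adjusted p of 0.459, and 1.11 ± 0.21 in KO, with an unadjusted p of 4.0e-04 and a limma adjusted p of 0.217. Neither was called. Over both genotypes together it was 0.98 ± 0.15, or 1.98-fold (95% confidence interval 1.57 to 2.50), with a limma adjusted p of 0.0251. That comparison called 44 features, all of them higher in hypoxia (0.363% of those tested), and Bhlhe40 ranked 43 among them by size of change. No feature was called lower.

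The WT comparison called 13 features (0.107%) and the KO comparison 7 (0.0578%), with 0 of the 10 genes in each. With single libraries left out, the counts ran from 1 to 20 in WT (lowest without WT hypoxia replicate 2), from 4 to 758 in KO (lowest without KO hypoxia replicate 2, highest without KO normoxia replicate 2) and from 12 to 50 over both (lowest without WT hypoxia replicate 2). At an unadjusted p under 0.05, 1 of the 10 passed in WT, in KO and over both genotypes, against 6.33%, 3.2% and 5.29% of all features. The size of the Bhlhe40 change held when single libraries were left out, between 0.92 and 1.05, but its call did not. Leaving out replicate 1 or replicate 2 gave limma adjusted p-values of 0.114 and 0.143 for the normoxia libraries of WT, 0.126 and 0.103 for its hypoxia libraries, and 0.197 and 0.102 for the hypoxia libraries of KO, so each of these 6 ended the call. For the normoxia libraries of KO the values were 0.0301 and 0.0235.

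**Figure D1:**
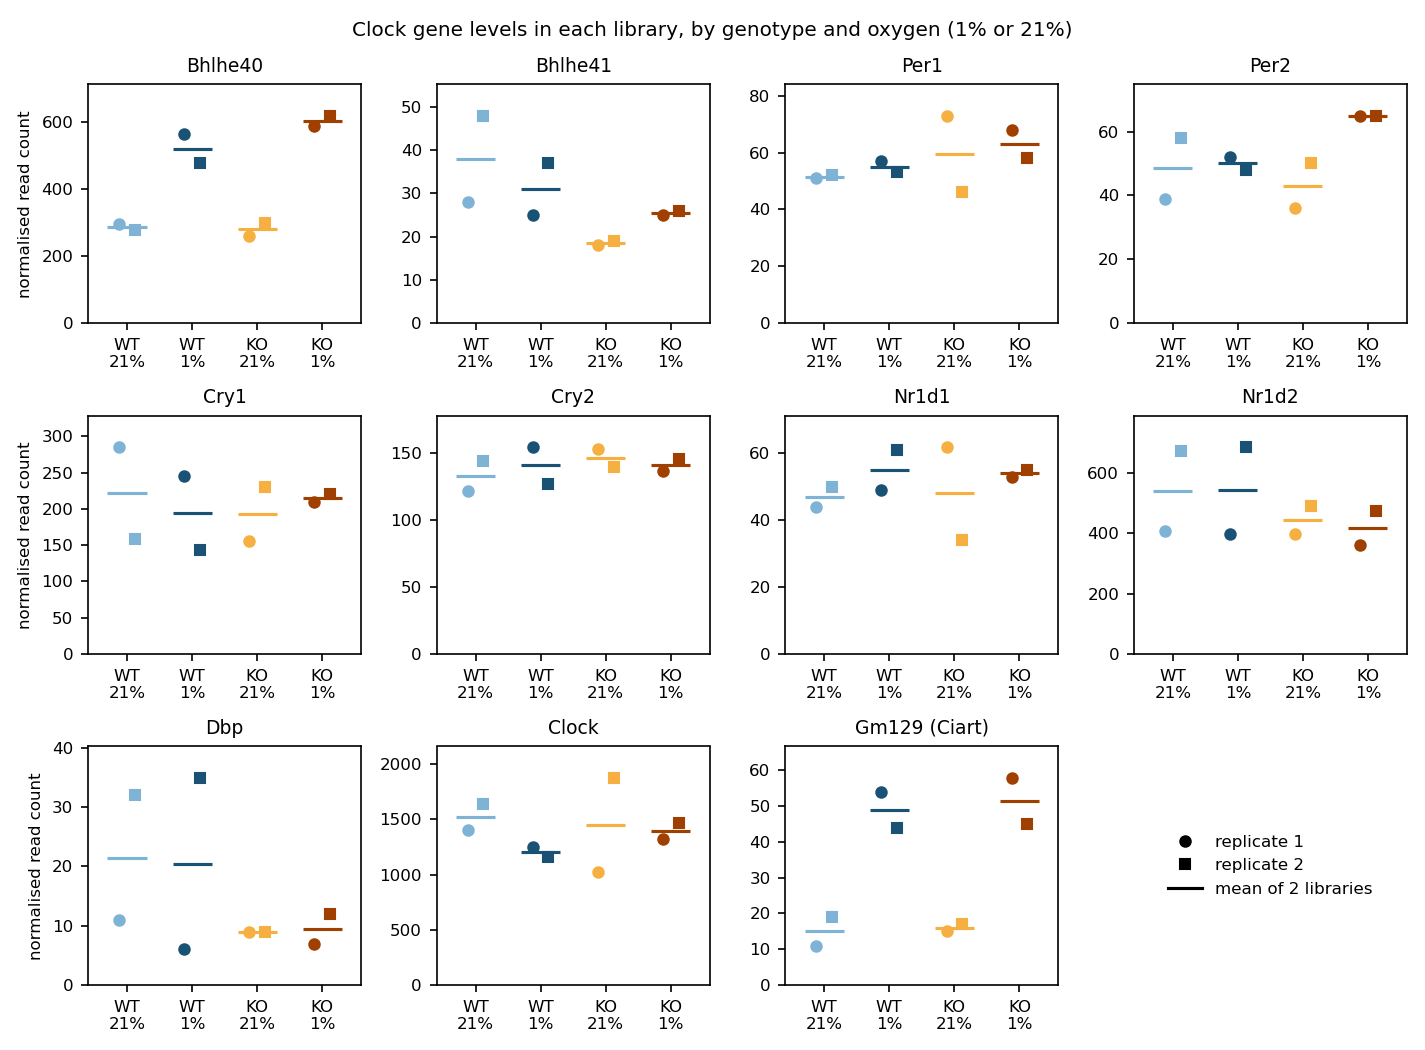
Normalised read count of each of the 10 genes and of Gm129 (Ciart) in every library, 1 panel per gene, with a point for each of the 2 libraries of the 4 groups (WT and KO, normoxia and hypoxia). Bhlhe40 runs from 260 to 299 in the normoxia libraries and from 476 to 618 in the hypoxia libraries, and Gm129 from 11 to 19 and from 44 to 58.

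Bhlhe41, the second DEC repressor, lies on the same chromosome at chr6:145858243-145865558 (minus strand) and was among the least abundant. Its values were 28 and 48 in WT normoxia, 25 and 37 in WT hypoxia, 18 and 19 in KO normoxia and 25 and 26 in KO hypoxia. The hypoxia and normoxia libraries overlapped in WT, and in KO both hypoxia values were above the normoxia values. Such a separation of 2 libraries from 2 has an exact two-sided permutation p of 0.333. Its share over all features was not counted. The change was -0.26 ± 0.40 in WT, 0.44 ± 0.40 in KO and 0.09 ± 0.28 over both (limma adjusted p = 0.972), with a 95% interval on the log2 scale of -0.54 to 0.72 for the last. The upper end of that interval is below the Bhlhe40 change of 0.98. The Bhlhe40 interval, 0.65 to 1.32, overlaps that of Bhlhe41, and the 2 changes were not tested against each other.

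Among the 22 other clock genes listed, 19 passed the filter, and 1 of them was called higher over both genotypes (0.363% of all features) and 0 lower. It was Ciart, also called CHRONO, a repressor of CLOCK and BMAL1, which the table lists under its older symbol Gm129. Gm129 stood at 11 and 19 in WT normoxia and 54 and 44 in WT hypoxia. In KO it was at 15 and 17 in normoxia and 58 and 45 in hypoxia. The 4 hypoxia libraries were again above the 4 normoxia libraries.

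The log2 change of Gm129 was 1.68 ± 0.39 in WT (limma adjusted p = 0.366) and 1.62 ± 0.39 in KO (0.524). Over both it was 1.65 ± 0.28, or 3.14-fold, with a limma adjusted p of 0.0396. With any 1 of the 8 libraries left out the change stayed between 1.47 and 1.83, and the limma adjusted p lay between 0.0541 and 0.322, so no such fit kept the call. A filter at 50 in place of 10, no filter, and array weights also ended it, with adjusted p-values of 0.0863, 0.109 and 0.106. With a replicate block within each genotype, an alternative chosen after seeing the data, the limma adjusted p was 0.0215 in WT, 0.0713 in KO and 0.000735 over both.

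E-boxes of the sequence CACGTG, which reads the same on both strands, are shown for Ciart and for the 3 of the 10 genes that hold one in their RefSeq promoter window. Windows (GRCm38.p6) run from 250 bases before to 50 bases after a start site, and 11 windows were read for 8 of the 10 genes, without Bhlhe40 and Per2. Each sequence is 5′ to 3′ on the gene's strand, with the E-box in capitals. The windows are chr3:95882179-95882478 (minus) for Ciart, chr6:145865371-145865670 (minus) for Bhlhe41, chr11:69098699-69098998 (plus) for Per1 and chr10:85185005-85185304 (minus) for Cry1.
Ciart: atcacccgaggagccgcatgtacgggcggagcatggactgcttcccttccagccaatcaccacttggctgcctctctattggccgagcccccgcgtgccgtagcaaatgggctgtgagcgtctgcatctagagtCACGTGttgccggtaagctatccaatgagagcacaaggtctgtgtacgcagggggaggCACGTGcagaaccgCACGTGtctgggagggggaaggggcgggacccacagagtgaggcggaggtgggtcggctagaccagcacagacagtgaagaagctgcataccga
Bhlhe41: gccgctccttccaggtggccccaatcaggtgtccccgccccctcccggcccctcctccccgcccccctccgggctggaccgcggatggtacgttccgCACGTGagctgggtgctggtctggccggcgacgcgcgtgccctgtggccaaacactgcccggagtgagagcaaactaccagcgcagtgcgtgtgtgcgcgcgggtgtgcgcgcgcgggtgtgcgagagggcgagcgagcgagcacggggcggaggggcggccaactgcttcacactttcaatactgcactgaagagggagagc
Per1: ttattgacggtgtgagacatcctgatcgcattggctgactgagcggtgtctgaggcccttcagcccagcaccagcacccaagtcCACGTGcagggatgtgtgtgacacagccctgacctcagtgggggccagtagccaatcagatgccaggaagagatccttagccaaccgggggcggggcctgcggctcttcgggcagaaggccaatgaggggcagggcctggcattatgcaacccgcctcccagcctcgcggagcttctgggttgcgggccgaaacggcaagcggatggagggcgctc
Cry1: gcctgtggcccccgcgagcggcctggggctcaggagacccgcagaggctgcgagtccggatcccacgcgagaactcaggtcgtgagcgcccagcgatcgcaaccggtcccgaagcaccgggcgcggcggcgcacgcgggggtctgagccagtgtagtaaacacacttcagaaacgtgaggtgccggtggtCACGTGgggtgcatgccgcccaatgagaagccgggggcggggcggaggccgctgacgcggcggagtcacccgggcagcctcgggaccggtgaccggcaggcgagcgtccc

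The Ciart window held 3 E-boxes, whose first bases were at -116, -58 and -44 from the start site counted as 1, with -1 for the base before it. Bhlhe41 had 1 at -153, Per1 1 at -166 and Cry1 1 at -60. Of all 32851 mouse windows, 7.15% held at least 1 and 29 (0.0883%) held 3 or more. The core of the HIF binding site, ACGTG or GCGTG on either strand, was in 10 of the 11 windows, covering all 8 genes, against 43.8% of all windows. The share over all windows was not matched for base composition. None of the 8 genes was called. CACGTG contains ACGTG, so these searches overlap. A match describes the letters only. Any window with an E-box therefore also counts as holding the core. Per1, Cry1 and Bhlhe41, with 1 E-box each, were not called. Of the other clock genes only the window of Ciart, the called one, was read, and Bhlhe40, also called, had no window. A link between E-boxes and calls was not tested.

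The Per and Cry genes encode the repressor arm of the loop, and none of the 4 was called in any comparison. Per1, at chr11:69095217-69109960, had values of 51 and 52, then 57 and 53 in WT, and 73 and 46, then 68 and 58 in KO, normoxia first. Per2, at chr1:91415982-91459324, had 39 and 58, then 52 and 48 in WT, and 36 and 50, then 65 and 65 in KO. Both KO hypoxia libraries were above the KO normoxia libraries for Per2, and both WT hypoxia libraries were just above the WT normoxia libraries for Per1. In the other genotype of each gene the groups overlapped. A separation of 2 libraries from 2 has an exact two-sided permutation p of 0.333, so these orders are not read as responses. Over both genotypes the log2 change was 0.10 ± 0.22 for Per1 (limma adjusted p = 0.957) and 0.34 ± 0.23 for Per2 (0.922). The KO change of Per2 alone was 0.60 ± 0.33 (limma adjusted p = 0.916).

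Cry1, at chr10:85131700-85185064, had 286 and 158 in WT normoxia, 245 and 144 in WT hypoxia, 156 and 230 in KO normoxia and 210 and 220 in KO hypoxia. In all groups but KO hypoxia, the replicates lay further apart than any of the group means did. Cry2, at chr2:92403646-92434043, varied less between libraries, with 122 and 144, 155 and 127, 153 and 140, and 137 and 146 in the same order. Log2 changes over both genotypes were 0.00 ± 0.25 for Cry1 and 0.02 ± 0.17 for Cry2, with limma adjusted p-values of 0.999 and 0.993. The 95% interval of Cry2 was -0.36 to 0.40, so a change of the Bhlhe40 size lies outside it.

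Nr1d1 and Nr1d2 encode REV-ERB alpha and beta, nuclear receptors that repress Arntl. Nr1d1, at chr11:98767932-98775333, had 44 and 50 in WT normoxia, 49 and 61 in WT hypoxia, 62 and 34 in KO normoxia and 53 and 55 in KO hypoxia. Nr1d2, at chr14:18204054-18239127, was far more abundant, with 408 and 671, 398 and 686, 398 and 489, and 361 and 474. Its replicate 2 was above its replicate 1 in all 4 groups, while the oxygen groups overlapped. Changes over both genotypes were 0.22 ± 0.25 for Nr1d1 and -0.05 ± 0.23 for Nr1d2 (limma adjusted p = 0.925 and 0.984). Nr1d1 overlaps Thra on the other strand, and whether the counting used strand is not given in the sources used here. Thra was highest in KO normoxia replicate 1 (252) and lowest in KO normoxia replicate 2 (147), as was Nr1d1.

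Dbp encodes an activator that is a direct output of the clock, and it was near the filter. At chr7:45705088-45710203, it had 11 and 32 in WT normoxia, 6 and 35 in WT hypoxia, 9 and 9 in KO normoxia and 7 and 12 in KO hypoxia. The WT libraries numbered 2 were the only ones above 12, at both oxygen levels. The change over both genotypes was -0.15 ± 0.55 with a 95% interval of -1.37 to 1.07 (limma adjusted p = 0.978), too wide to tell a change of the Bhlhe40 size from none. Dbp overlaps Sphk2 on the other strand, which had 151 and 80, 108 and 98, 169 and 93, and 107 and 101.

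Clock, at chr5:76209868-76304792, encodes the activator itself. It had 1402 and 1635 in WT normoxia, 1246 and 1163 in WT hypoxia, 1025 and 1877 in KO normoxia and 1325 and 1470 in KO hypoxia. The WT hypoxia libraries were below the WT normoxia libraries, and in KO both hypoxia values lay between the normoxia values. The WT separation, of 2 libraries from 2, has an exact two-sided permutation p of 0.333. The change was -0.33 ± 0.28 in WT, 0.01 ± 0.28 in KO and -0.16 ± 0.20 over both (limma adjusted p = 0.931, 95% interval -0.61 to 0.28). With each library's trend with transcript length removed, the WT change of Clock, the gene with the largest total exon length of the 10, was -0.07 (limma adjusted p = 0.981). Apart from Bhlhe40, the smallest limma adjusted p of the 10 genes over both genotypes was 0.922. The median change of the 10 was 0.05, against 0.00 for all features, and the median absolute change 0.126 against 0.163.

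**Figure D2:**
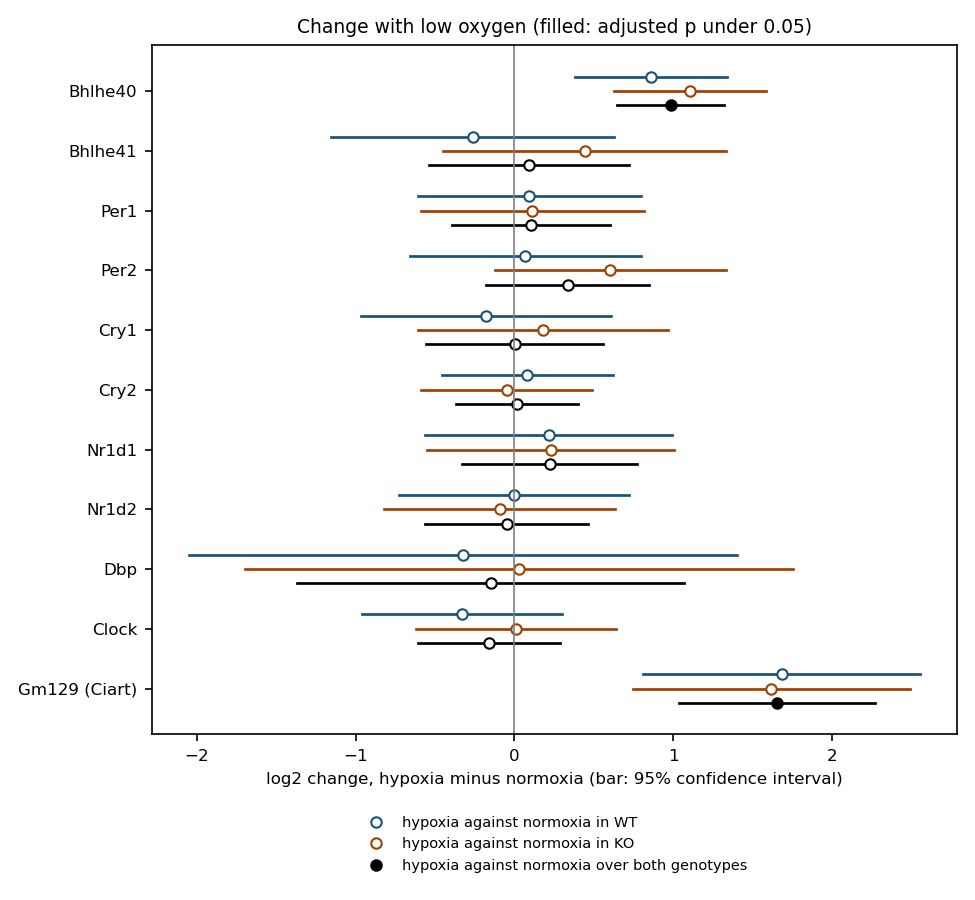
Log2 change from normoxia to hypoxia of the 10 genes and Gm129 (Ciart) in WT, in KO and over both genotypes, with 95% confidence intervals as bars. Over both genotypes the intervals of Bhlhe40 (0.65 to 1.32) and Gm129 (1.03 to 2.27) lie above 0, while the other 9 genes cross it.

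The rest of the loop was read from the 19 tested genes of the other clock list, where 10 changes were positive over both genotypes and the median was 0.16. In WT and in KO alone limma called 0 of the 19, with 3 and 1 at an unadjusted p under 0.05, where all features gave 6.33% and 3.2%. Over both genotypes 4 of the 19 had such a p, against 5.29% of all features: Gm129, Nfil3, Tef and Timeless. Timeless, named for its fly relative of the clock, had 535 and 422, 346 and 264 in WT and 398 and 441, 314 and 356 in KO, with a change of -0.49 ± 0.17 (unadjusted p = 0.0155, limma adjusted p = 0.805). All its hypoxia libraries were below its normoxia libraries. Arntl, the partner of Clock, had 147 and 84, 179 and 129 in WT and 249 and 215, 298 and 260 in KO, normoxia first, with a change of 0.36 ± 0.22 (limma adjusted p = 0.922). Nfil3, a repressor that competes with DBP for its sites, had 387 and 292, 557 and 512 in WT and 414 and 381, 487 and 478 in KO. All 4 hypoxia libraries of Nfil3 were above the normoxia libraries, and its change of 0.47 ± 0.16 had an unadjusted p of 0.013 and a limma adjusted p of 0.798.

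Tef, an activator of the DBP family, had the lowest change of the list, -0.50 ± 0.22 (limma adjusted p = 0.922), with 566 and 782, 447 and 572 in WT and 869 and 463, 402 and 430 in KO. Per3 changed by -0.30 ± 0.29 and Rora, which encodes an activator of Arntl, by 0.53 ± 0.33, both with a limma adjusted p of 0.922 or above. Npas2, which can stand in for Clock, was low, at 4 to 20, with a change of 0.45 ± 0.41. Hlf was at 1 in all 8 libraries.

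Of 19 known HIF-responsive genes, 8 were called higher in WT, 7 in KO and 17 over both genotypes, with 0 lower. Of all features, 0.107%, 0.0578% and 0.363% were called higher. The median log2 change of the 19 over both genotypes was 1.49, against 0.00 for all features. These genes were known to respond in these data when the list was drawn up. Slc16a3, the lactate exporter, changed most, at 4.98, and Mxi1, at 0.87, least (limma adjusted p = 0.153). The change of Bhlhe40, 0.98, lay near the low end of this range. The summed values of the 19 genes ran from 10037 to 13228 in normoxia and from 28957 to 38776 in hypoxia.

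The 5 features whose log2(value + 1) followed that of Bhlhe40 most closely over the 8 libraries, of 9787 with a mean of at least 50, were Egln1 (Pearson r = 0.995), Kdm3a (0.971), Ak4 (0.969), Slc2a1 (0.964) and Ero1l (0.961). These r values describe 8 libraries that share the oxygen contrast. Egln1, which encodes the oxygen sensor that marks HIF for destruction, had 686 and 613, 1302 and 1183 in WT and 620 and 721, 1379 and 1383 in KO. Its change over both genotypes, 0.99 ± 0.15 (limma adjusted p = 0.0211), was close to that of Bhlhe40 in size, and its call held in 2 of the 8 fits that left out 1 library. Kdm3a, a histone demethylase, changed by 1.49, the adenylate kinase Ak4 by 2.29, the glucose transporter Slc2a1 by 1.23 and the oxidase Ero1l by 1.31, and all were called. Among the 10 genes, the r with Bhlhe40 was highest for Per2, at 0.67, and lowest for Dbp, at -0.22.

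**Figure D3:**
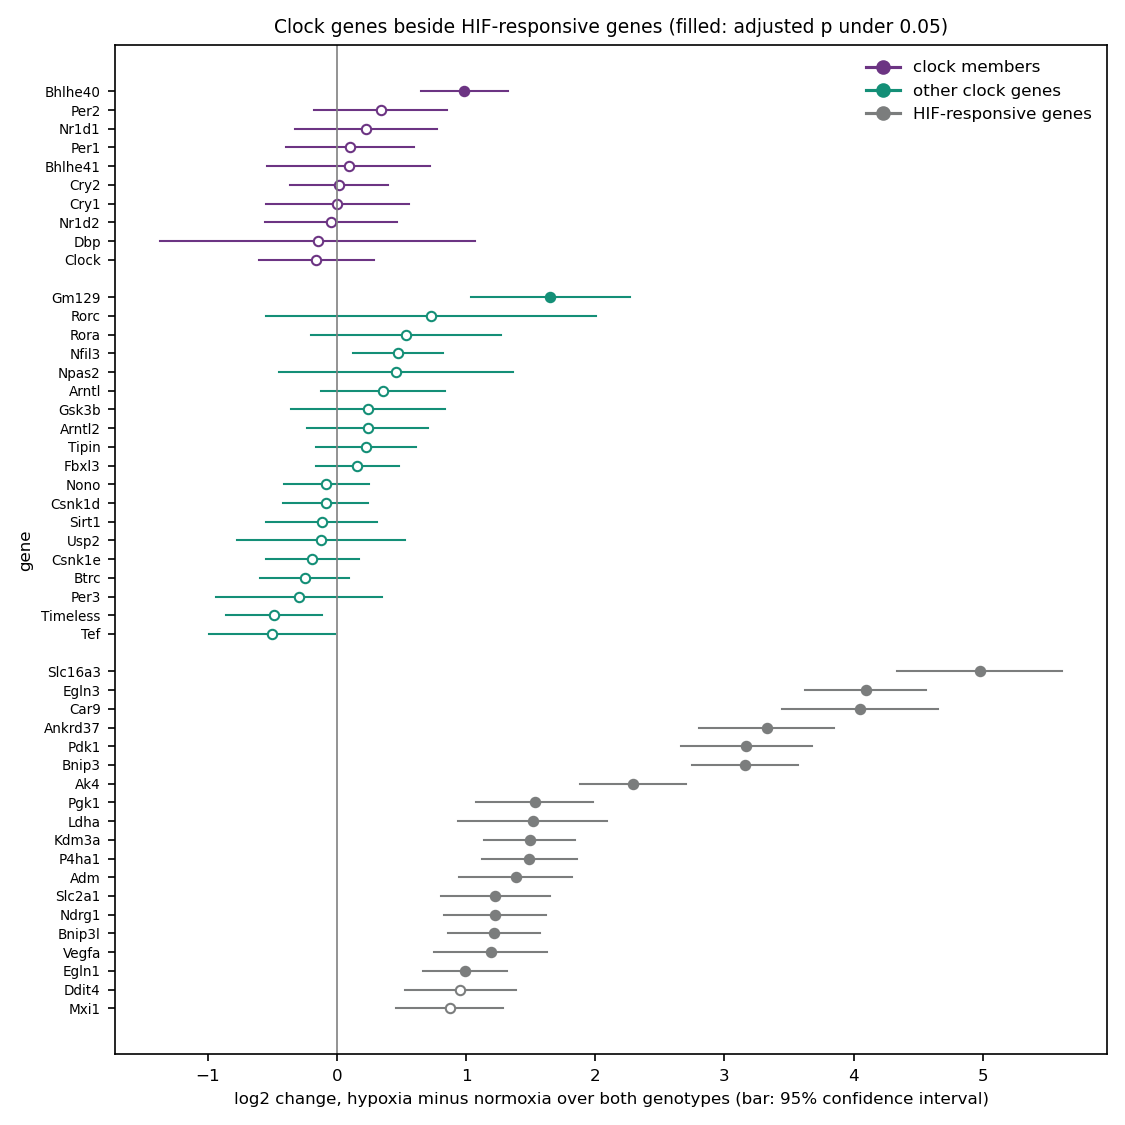
Log2 change from normoxia to hypoxia over both genotypes for the 10 genes, the 19 other clock genes tested and the 19 HIF-responsive genes, 1 point per gene. The HIF-responsive genes lie between 0.87 and 4.98, and the clock genes lie around 0 apart from Bhlhe40 (0.98) and Gm129 (1.65).

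Medium change and serum can reset the clock through immediate-early and glucocorticoid-responsive genes, so these were read too. Of 12 immediate-early genes limma called 0 over both genotypes and 3 had an unadjusted p under 0.05 (5.29% of all features), with 11 of the 12 changes positive, a median of 0.29 and a range from -0.72 for Fosb to 0.90 for Egr2 (limma adjusted p = 0.496). Of 7 glucocorticoid-responsive genes limma called 0 and 2 had an unadjusted p under 0.05 (5.29% of all features), with 4 of the 7 changes positive, a median of 0.10 and a range from -0.23 for Fkbp5 to 0.59 for Tsc22d3. Over all features 50.4% of changes were positive and the median was 0.00. The lists are not separate, as Dusp1 is in both and had such a p (limma unadjusted p = 0.0479). Per1 is in the glucocorticoid list, and Fosb was low, at 1 to 13.

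KO and WT were compared at each oxygen level, and the responses themselves were compared. These comparisons share libraries with those above. None of them called any feature (0% of 12107), the 10 genes included, and at an unadjusted p under 0.05 they passed 363, 910 and 380 features (3%, 7.52% and 3.14%). The KO minus WT difference of Bhlhe40 was -0.03 in normoxia and 0.22 in hypoxia (limma adjusted p = 0.769), and its responses differed by 0.25 ± 0.30 (95% interval -0.43 to 0.92, limma adjusted p = 0.880). That interval allows a response in KO that is smaller or larger than in WT.

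Bhlhe41 was the 1 gene of the 10 with an unadjusted p under 0.05, in normoxia, where the KO minus WT difference was -0.95 ± 0.40 (unadjusted p = 0.0388, limma adjusted p = 1). In hypoxia the difference was -0.25 ± 0.40 (limma adjusted p = 0.860). Dbp differed by -0.99 ± 0.78 in normoxia. Arntl had all 4 KO libraries above all 4 WT libraries, as did 236 features (1.95%) and 0 of the 10. The opposite order was met by 1.7% of features and by 0 of the 10. The differences of Arntl were 1.05 ± 0.31 in normoxia (limma adjusted p = 1) and 0.87 ± 0.31 in hypoxia (limma adjusted p = 0.641). Its partner Clock differed by -0.13 and 0.21. Npas2 differed by 1.40 ± 0.58 in hypoxia (limma adjusted p = 0.641).

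**Figure D4:**
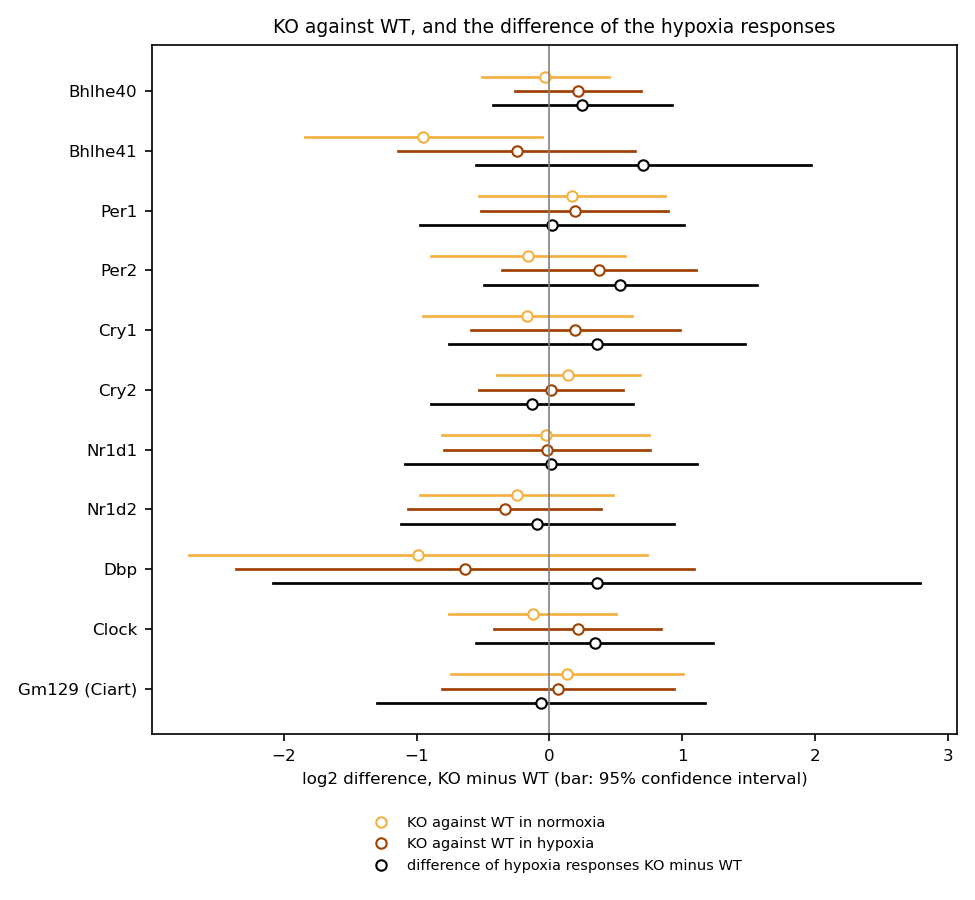
Log2 difference KO minus WT in normoxia and in hypoxia, and the difference of the hypoxia responses, for the 10 genes and Gm129 (Ciart), with 95% confidence intervals as bars. Of these intervals, that of Bhlhe41 in normoxia (-1.84 to -0.06) leaves out 0, and its limma adjusted p is 1.

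The seed of miR-210-3p, bases 2 to 8 and in capitals below, pairs with the site ACGCACA in a transcript. The mature sequence is RefSeq's, from chr7:141221407-141221428 (minus strand, GRCm38.p6). The site was searched in the transcripts past the coding sequence and found in 1 of the 10 genes, Bhlhe41, at chr6:145858910-145858936 (minus strand), against 346 of 10645 tested genes (3.25%). Both are shown because Bhlhe41 is the gene with the site, which is in capitals.
miR-210-3p: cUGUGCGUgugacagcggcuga
Bhlhe41: aaatagtggaACGCACActaaagttta

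The Bhlhe41 normoxia values, 28 and 48 in WT and 18 and 19 in KO, have a lower level in the KO libraries. Its hypoxia values, 25 and 37 in WT and 25 and 26 in KO, overlap. The share over all tested genes was not matched for length. Bhlhe41 held 4609 of the 21554 bases searched in the 10 genes. A match of these letters is a description only.

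Several clock genes also differed between the libraries numbered 1 and 2 of a genotype. In WT, number 2 minus number 1 was 1.91 on the log2 scale for Dbp, a difference exceeded in size by 1.2% of features, 0.94 for Per3 (6.29%), 0.85 for Rora (7.76%), 0.75 for Nr1d2 (10.1%) and 0.65 for Bhlhe41 (13.0%). It was -0.81 for Cry1 (8.67%) and -0.63 for Arntl (13.6%). For Per2 it was 0.22 (53.9%), for Bhlhe40 -0.17 (64.8%) and for Per1 -0.04 (91.6%), sizes that most features exceeded.

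In KO the differences of Clock, 0.51 (exceeded in size by 18.9% of features), and Per1, -0.44 (26.0%), were the largest in size among the 10 genes. Dbp differed by 0.35 (38.1%), Nr1d2 by 0.34 (38.9%) and Cry1 by 0.31 (43.5%). The median absolute difference of the 10 genes was 0.235 in WT and 0.328 in KO, against 0.246 and 0.270 for all features. The values of numbers 1 and 2 did not overlap for 5 of the 10 genes in WT, against 43.6% of all features, and for 4 of 10 in KO, against 41.3%, so the count is near the background. The genes described here were picked out after their values were seen, and whether the numbers mark separate cultures or times of harvest was not tested.

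**Figure D5:**
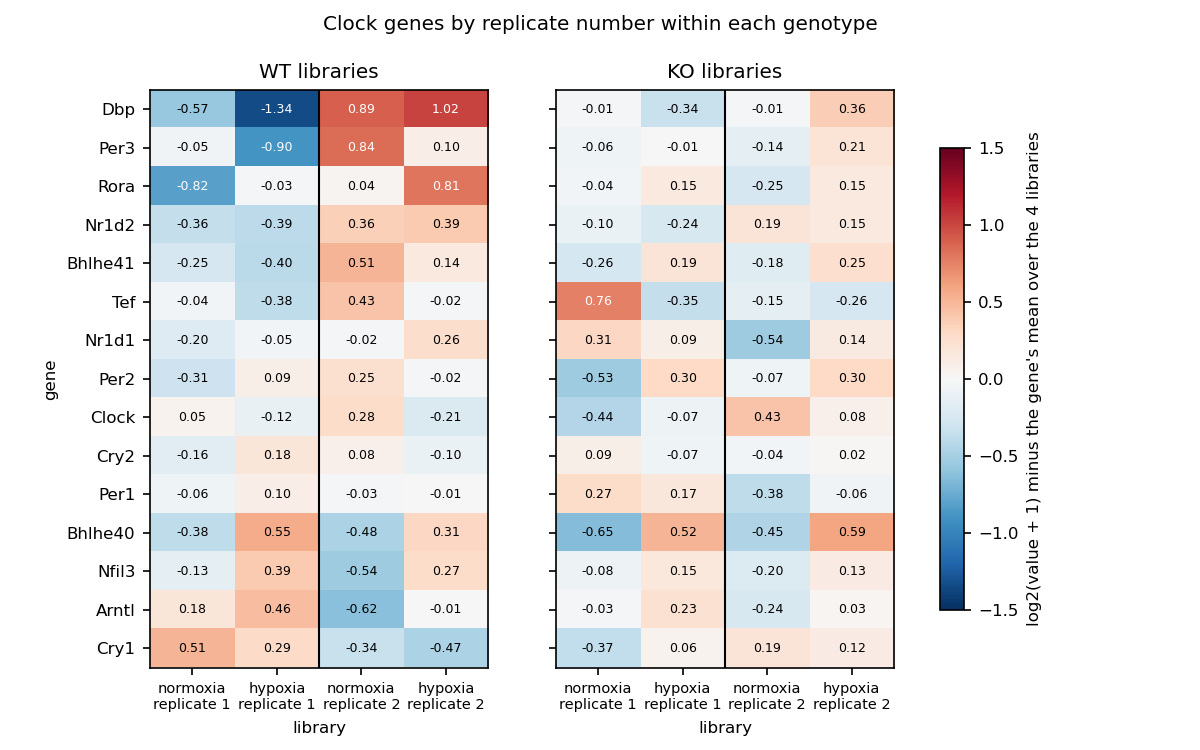
Log2(value + 1) of clock genes minus each gene's mean over the 4 libraries of its genotype, in WT (left) and KO (right), with genes ordered by the WT difference between replicate numbers. In WT, Dbp is at -0.57 and -1.34 in the libraries numbered 1 and at 0.89 and 1.02 in those numbered 2, while Cry1 is at 0.51 and 0.29, then -0.34 and -0.47.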

How the data were processed

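The authors deposited 1 table of normalised read counts, treated here as a score since the values are whole numbers with a floor of 1. The normalisation, aligner, genome build and strand setting were not given in the sources used here, so reads of overlapping genes may be shared. A miRNeasy kit gave total RNA, and a small RNA set from New England Biolabs for SOLiD sequencing gave the libraries, per the labels' protocols. All 8 sample columns were used.

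Features with at least 10 in at least 2 of 8 libraries were tested as log2(value + 1) with limma's trend method (version 3.58.1, R 4.3.3), in 1 model of the 4 groups with 10.2 degrees of freedom, and adjusted by Benjamini-Hochberg over 12107 features. Whole reads were not recovered, so no count model was run. The value of 1 read was estimated from the spacing of low values (0.659 to 1.384, largest error 0.047 on 4 simulated libraries). On simulated data of 12020 features, the comparison over both genotypes recovered 28% of genes changed 1.5-fold and 88% of those changed 2-fold, with 5 false calls. For WT these shares were 14% and 52%, and for KO 10% and 60%. The simulation gave every feature 1 common dispersion, while the estimated log2 SD of the 10 genes ran from 0.215 (Bhlhe40) to 0.776 (Dbp). The shares are therefore not the rates at which changes of these genes would be called.

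Coordinates, exon lengths and transcript ends came from GENCODE M21 (GRCm38), and promoters and miR-210 from RefSeq (GRCm38.p6). Named are the 10 genes, other list genes that were called, had the highest or lowest change of a list over both genotypes or carry the account of the pathway, and the 5 features most like Bhlhe40. A further gene list is not reported here. The members and lists were chosen with earlier results of these data known. Alternatives tried were other pseudocounts, filters, scalings, weights, a correction for transcript length, replicate blocks and leaving out libraries.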

Additional observations from a re-analysis of the deposited data

How the results depend on the processing

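The number of libraries, 2 a group, limits every comparison, and a value near 10 rests on about 7.23 to 15.2 reads, where counting error is large. Of 1048 changes of the 10 genes under alternatives, 1025 passed the test neither there nor in the result as reported, 7 lost a call and 3 gained one. The sign differed in 109, and in 107 of these the reported change was within 1 SE of 0. The other 2, both KO minus WT of Nr1d2 in hypoxia (-0.34 as reported), were 0.056 without WT hypoxia replicate 2 and 0.056 without both that library and KO normoxia replicate 1, with a range of -0.73 to 0.056 when single libraries were left out. The cause was not tested.

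The number of features called in WT, 13, was 6 with no filter, 21 with array weights, 6 without both of these libraries, and 1 to 20 when single libraries were left out. The number in KO, 7, was 11 with the length trend removed and 4 to 758 when single libraries were left out, the highest without KO normoxia replicate 2, where Bhlhe40 was called (1.21, limma adjusted p = 0.0316). So 0 to 1 of the 10 genes were called in KO and 0 to 1 over both genotypes in such fits. Over both genotypes, 44 became 24 with no filter, 25 without both libraries and 12 to 50 when single libraries were left out. Without both libraries 0 of the 10 genes were called, with Bhlhe40 at 0.99 (limma adjusted p = 0.0526). Over 18 alternatives Bhlhe40 was called in 11 and Gm129 in 6. The change in the median of all features under other scalings was below 0.05 on the log2 scale in every comparison.

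With the replicate number as a block, features called were 19 in WT, 11 in KO and 56 over both genotypes, and the calls of the 10 genes were the same. Deviations of same-numbered libraries correlated at 0.57 between oxygen levels in WT, 0.23 in KO and -0.11 to 0.11 across genotypes, and no label says what the numbers share, so they were not taken as pairs. A replicate block within each genotype, chosen after seeing the data, called 230 features in WT, 57 in KO and 243 over both genotypes, and among the 10 genes 1 in WT (Bhlhe40, limma adjusted p = 0.0495) and 1 in KO (Bhlhe40, 0.0187). It also called Gm129 in WT (0.0215). Leaving out both libraries together was also chosen after seeing the data.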
